A study of Mus musculus with 8 samples.

Results

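The ciliary body epithelium (CBE) nuclei are those that the deposited cell annotation assigns to the CBE cluster in any of the 8 single nucleus RNA sequencing (snRNAseq) libraries of adult mouse iris. There were 1295 such nuclei among 34357, together holding 4771096 unique molecular identifiers (UMIs, each marking 1 captured transcript molecule). The libraries were made from wild-type female albino mice aged 6 to 8 weeks, and each pooled 5 or 6 irises together with whatever margin of ciliary body was cut with them. Untreated irises gave 3 libraries. Dilated irises (2 libraries) came from mice kept in the dark that received eye drops of 5% phenylephrine, an alpha-1 adrenergic agonist, and 1% cyclopentolate, a muscarinic antagonist, every hour for 6 hours. Constricted irises (3 libraries) came from mice kept in the light that received drops of 5% pilocarpine, a muscarinic agonist, on the same schedule. Tissue was taken 30 minutes after the last dose. The lighting of untreated mice is not given in the sources used here, so that drug and light cannot be told apart in any comparison between these groups. Collection was in 5 batches and sequencing in 2 runs, and the labels tie neither to libraries.

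The ciliary epithelium is a bilayer that grows from the rim of the embryonic optic cup and continues forward into the pigment epithelium on the back of the iris (iris PE). Its outer layer is pigmented and its inner, nonpigmented layer faces the vitreous. Gap junctions couple the layers, and ion pumps, anion exchangers and carriers move salt, taurine, amino acids and water from the ciliary stroma to the posterior chamber, where they form the aqueous humor. The nonpigmented layer also makes the zonular fibers that hold the lens and contributes collagens to the vitreous.

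CBE nuclei were unevenly spread over the libraries. Untreated replicates 1, 2 and 3 held 79, 158 and 136 of them, constricted replicates 1, 2 and 3 held 124, 71 and 52, and dilated replicates 1 and 2 held 556 and 119. Dilated replicate 1 therefore supplied 82.4% of all dilated CBE nuclei. As a share of all nuclei the CBE made up 5.34%, 2.47% and 2.09% of the untreated libraries, 2.93%, 5.57% and 1.50% of the constricted libraries, and 7.59% and 3.21% of the dilated libraries. The ranges of the 3 conditions overlapped. The mean share was 3.30% ± 1.78 (SD, n = 3) in untreated, 3.34% ± 2.06 (SD, n = 3) in constricted and 5.4% ± 3.1 (SD, n = 2) in dilated irises. The 2-sided exact permutation test gave p = 0.5 for dilated and p = 1 for constricted against untreated irises, where 0.1 is the smallest p that these group sizes allow. Nuclei of the CB cluster, the ciliary body cells that the study describes as non-epithelial, followed the CBE share broadly from library to library, and made up 7.35% of dilated replicate 1 and 1.36% of constricted replicate 3, the libraries with the highest and lowest CBE share. Without dilated replicate 1 the difference between dilated and untreated irises was -0.0915 percentage points. Shares of nuclei say how much of a cell type was captured with the tissue, and the amount of ciliary body dissected could not be told apart from a change in the tissue.

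**Figure D1:**
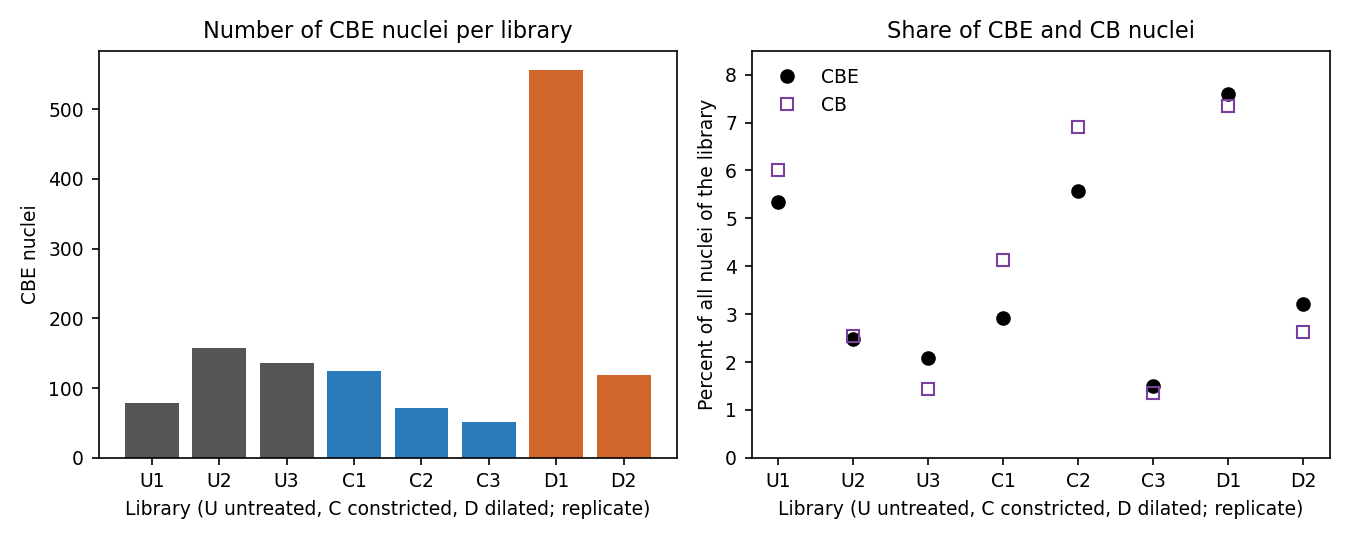
Left, the number of CBE nuclei in each library; right, CBE nuclei (filled circles) and CB nuclei (open squares) as a percentage of all nuclei of the library. U, C and D stand for untreated, constricted and dilated, followed by the replicate. Dilated replicate 1 has the most CBE nuclei (556), and the CBE and CB shares are broadly alike within a library.

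The median CBE nucleus held 3710, 3175 and 3155 UMIs in the untreated libraries, 2993.5, 5281 and 2833 in the constricted libraries and 3236.5 and 3110 in the dilated libraries. Constricted replicate 2 stood above the others, both in the CBE and over all its nuclei (median 4697.5 UMIs). UMIs were summed over the CBE nuclei of each library, and levels below are these sums scaled to 1000000 UMIs of that library's CBE nuclei (CPM). The sums ranged from 163774 UMIs in constricted replicate 3 to 2084588 in dilated replicate 1, so that levels were measured least precisely in the former. Of 1289 distinct barcode sequences of CBE nuclei, 6 occurred in more than 1 library.

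The label was checked against its 3 markers in the untreated libraries, and all 3 were highest in the CBE among the 10 cell types. *Sned1* (chromosome 1, 93235841 to 93301065, plus strand, mm10), which encodes a secreted matrix protein, was at 4915, 4590 and 4740 CPM in CBE nuclei of the 3 untreated libraries, against a mean of 472 CPM in iris PE, the next type. *Slc6a6* (chromosome 6, 91684053 to 91759066, plus strand), the sodium-coupled taurine carrier, was at 3843, 2463 and 3380 CPM, against 24.7 CPM in iris PE, 100 CPM in CB and 863 CPM in endothelial cells, the next type. *Fbln1* (chromosome 15, 85205949 to 85286535, plus strand), which encodes the matrix glycoprotein fibulin-1, was at 1473, 824 and 857 CPM, against 153 CPM in iris PE. No untreated library of any other type reached the CBE levels of these genes. Since the clusters were made from the same counts, these and the other differences between cell types are descriptions and carry no test.

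Among the 373 untreated CBE nuclei, *Sned1* gave at least 1 UMI in 98.4% (95% Wilson interval 96.5 to 99.3, counting error only), *Slc6a6* in 89.3% and *Fbln1* in 82.0%. All 3 genes were seen in 74.5% of the nuclei. In stroma 1, a cell type of another lineage with a median of 2691 UMIs against 3223 in the CBE, the same genes gave a UMI in 10.4%, 6.97% and 1.47% of nuclei. When each nucleus was thinned to 1000 UMIs, which left out 4 CBE nuclei, the shares in the CBE were 88.9%, 73.4% and 56.6%. Unthinned, iris PE nuclei gave 58.2% for *Sned1*, 24.5% for *Fbln1* and 6.61% for *Slc6a6*, so that *Slc6a6* set the CBE apart from its neighbor most sharply of the 3.

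Markers of other tissues were low or absent in the CBE. Of the photoreceptor genes, *Nrl* and *Crx* were at 0 in all 3 untreated libraries. *Krt12*, the keratin of corneal epithelium, was at 0 in all 8. The 6 leukocyte markers summed to between 32.9 and 56.2 CPM in the 8 libraries, and *Ptprc*, the gene for the pan-leukocyte antigen CD45, was at 0 in 5 of them. The 10 dilator muscle markers, however, summed to 858, 692 and 738 CPM in untreated CBE nuclei, against a mean of 8587 CPM in dilator muscle itself. *Reln*, which encodes the secreted glycoprotein reelin, was the most abundant of them in every library, at 309 ± 65.9 CPM (SD, n = 3), whereas *Adra1a*, the alpha-1A adrenergic receptor, stood at 30.8 CPM in the CBE against 479 CPM in dilator muscle. In the constricted libraries the dilator list summed to 1341, 1030 and 873 CPM and in the dilated libraries to 780 and 769 CPM. Nuclei with UMIs of 2 or more different markers of a muscle, stroma, leukocyte or endothelial list numbered 520 of 1295, and 443 of these met the dilator list. The responses of the CBE and the genes highest in it were recomputed without such nuclei; the differences from iris PE and CB were not.

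In untreated irises, 123 genes had a mean of at least 50 CPM in the CBE and at least 2-fold the mean of every other cell type, which is 3.1% of the 3965 genes at 50 CPM or more and 0.538% of all genes measured. For 116 of them every untreated CBE library lay above every untreated library of the 9 other types. Without nuclei of mixed markers in every cell type, 110 genes met this rule, of which 95 were among the 123. The next type was iris PE for 57 of the 123, endothelial cells for 16, stroma 2 for 14 and CB for 11. The largest ratio was that of *Insrr* (chromosome 3, 87796951 to 87816101, plus strand), the insulin receptor-related receptor, which senses alkaline extracellular pH. It was at 56.9, 108 and 106 CPM in the 3 CBE libraries and at 1.10 CPM in the next type, stroma 2, from 5 UMIs, a ratio of 82.1. Untreated replicate 1 was the lowest of the 3, yet far above all libraries of the other types.

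**Figure D2:**
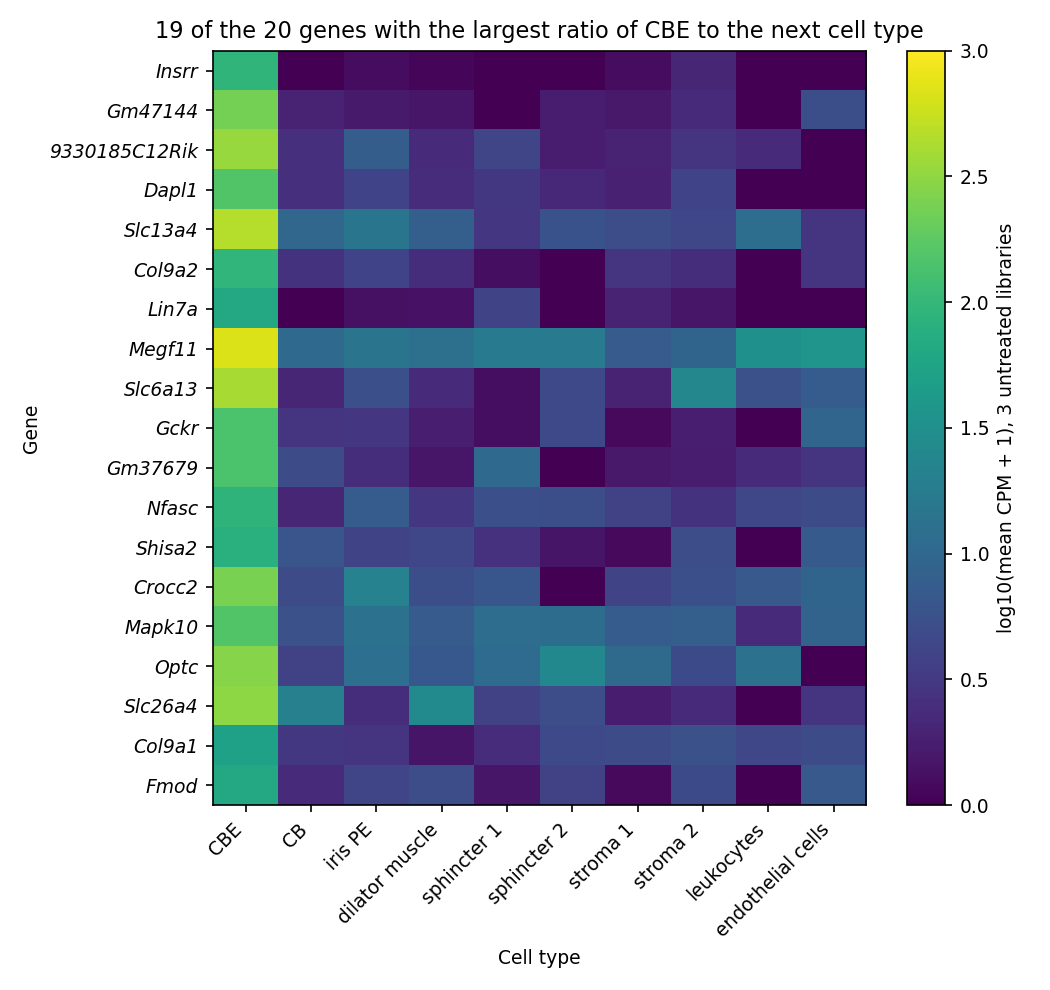
Mean level of 19 of the 20 genes with the largest ratio of the CBE to the next cell type, in the 10 cell types of the 3 untreated libraries, as log10(CPM + 1) by color. All 19 stand out in the CBE column, and *Megf11* at 699 CPM is the most abundant of them there.

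The rest of the 20 leading genes were of several kinds. *Dapl1* (152 ± 24.2 CPM, SD, n = 3, 50.6-fold the next type), *Nfasc* (88.6 CPM, 13.5-fold), which encodes the cell adhesion protein neurofascin, *Megf11* (699 CPM, 19.8-fold), *Lin7a* (63.4 CPM, 20.5-fold), a polarity scaffold, *Crocc2* (249 CPM, 12.3-fold) and *Mapk10* (152 CPM, 12.1-fold), a stress-activated kinase, led by ratio outside the groups described below. Noncoding transcripts were among them: *9330185C12Rik* at 342 ± 84.0 CPM against 6.64 CPM in iris PE, *Gm47144* at 236 ± 39.4 CPM, and the antisense transcript *Gm37679* at 141 ± 28.0 CPM (SD, n = 3 for each). *Gckr*, a regulator of glucokinase, was at 141 CPM, *Shisa2* at 79.7 CPM and *Fmod*, the collagen-binding proteoglycan fibromodulin, at 63.5 CPM. For these and *Gm47144* the next type, endothelial cells, rested on 2 or 3 UMIs, so no ratio is given.

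Carriers of small solutes were one group of CBE genes tied to aqueous humor. Of 33 measured carriers for amino acids, taurine, GABA, sulfate, monocarboxylates and ascorbate, 20 were at 10 CPM or more in the CBE. Of these 20, 11 had their highest mean there, where 10.7% of all genes at 10 CPM or more did. The 11 include the label marker *Slc6a6*, and *Slc6a13* and *Slc13a4*, which the study lists for the CBE from these samples. The count is therefore not independent evidence. Besides *Slc6a6*, the sulfate carrier gene *Slc13a4* was at 541, 408 and 428 CPM, 33.3-fold the iris PE mean of 13.8 CPM. *Slc6a13*, the GABA and taurine carrier GAT2, was at 541, 287 and 399 CPM against 4.38 CPM in iris PE and 23.3 CPM in stroma 2. No other type's library overlapped with the CBE for either gene. *Slc6a9*, the glycine carrier GLYT1, was at 310 ± 25.7 CPM against 153 ± 11.1 CPM in iris PE, and *Slc16a12*, a monocarboxylate and creatine carrier, at 247 ± 111 against 112 ± 28.0 CPM (SD, n = 3). *Gldc*, the glycine decarboxylase of the glycine cleavage system, was at 428 ± 54.0 CPM, 7.43-fold the CB mean.

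Of genes at 10 CPM or more in the CBE, 2 of 6 Na,K-ATPase subunits, 1 of 10 ion cotransporters and exchangers and 1 of 2 carbonic anhydrases were highest there. Over all genes at that level, 10.7% were. *Atp1b3*, a beta subunit of the Na,K-ATPase, was at 644 CPM against 362 CPM in iris PE. *Slc26a4*, the anion exchanger pendrin, was the only one of 15 cotransporters and exchangers to reach 2-fold over the next type. Its levels in the CBE were 114, 389 and 416 CPM, against 26.2 CPM in dilator muscle and 1.46 CPM in iris PE, with untreated replicate 1 low. The sodium bicarbonate cotransporter gene *Slc4a4* showed the opposite distribution, with 70.0 CPM in the CBE and 6338 CPM in CB, and gave a UMI in 11.3% of CBE nuclei and in all CB nuclei (100%). *Slc12a2*, the Na-K-2Cl cotransporter, was at 30.7 CPM in the CBE and 336 CPM in stroma 1.

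Among channels, *Best2*, the anion channel bestrophin-2, was at 413, 321 and 279 CPM in the CBE, 4.10-fold the iris PE mean of 82.4 CPM. *Aqp4*, a water channel, was at 43.0 ± 7.18 CPM (SD, n = 3) and at about 1 to 2 CPM in iris PE and CB (1.17 and 1.98). *Aqp1* was lower in the CBE (35.8 CPM) than in iris PE (86.6 CPM) or endothelial cells (270 CPM). The gap junction gene *Gja1* did not set these epithelial and ciliary types apart, at 1440 CPM in the CBE, 1448 in iris PE and 1392 in CB. *Trpm3*, a heat- and steroid-gated cation channel, was second only to the nuclear RNA *Malat1* in CBE nuclei at 8972 ± 878 CPM, with 5052 ± 138 in CB and 3691 ± 393 in iris PE (SD, n = 3). Of textbook genes of the nonpigmented ciliary epithelium 7 were measured, and 4 of them (*Best2*, *Aqp4*, *Wfdc1* and *Col9a1*) were highest in the CBE. Over all genes at 10 CPM or more, 10.7% were.

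**Figure D3:**
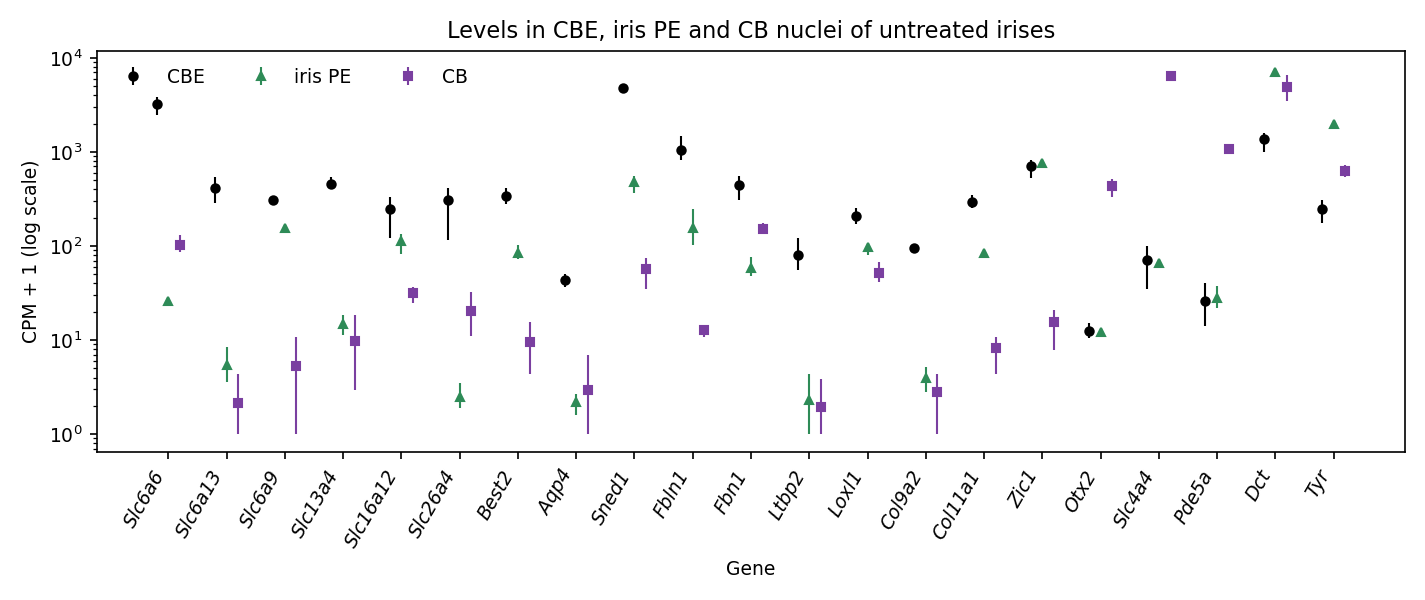
Levels of 21 genes in CBE (circles), iris PE (triangles) and CB (squares) nuclei of untreated irises, as CPM + 1 on a log scale; points are means of 3 libraries and bars run from the lowest to the highest library. Carriers and matrix genes are highest in the CBE, *Slc4a4* and *Otx2* in CB, and the melanin genes *Dct* and *Tyr* are lowest in the CBE.

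Extracellular matrix genes were a second large group. Of 33 genes of zonule, elastic fiber and basement membrane at 10 CPM or more, 14 were highest in the CBE. Of all genes at that level, 10.7% were. The 14 include the label markers *Sned1* and *Fbln1*. They also include *Col18a1* and *Adamtsl1*, which the study lists for the CBE from these samples. The count is therefore not independent evidence. *Fbn1*, which encodes fibrillin-1, the main zonular microfibril protein, was at 559, 306 and 453 CPM against 57 CPM in iris PE, 151 CPM in CB and 233 CPM in endothelial cells. *Ltbp2*, a microfibril-binding protein, was at 78.7 ± 36.7 CPM against 1.29 CPM in iris PE, *Loxl1*, the elastin cross-linking enzyme, at 206 ± 41.3 against 95.4 CPM, and *Col18a1*, a basement membrane collagen, at 1153 ± 115 against 93.8 CPM (SD, n = 3). *Eln*, the elastin gene, was at 82.3 CPM in the CBE and highest in endothelial cells at 633 CPM, and *Mfap2* was at a like level in the CBE (128 CPM) and iris PE (124 CPM).

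For vitreous matrix, 10 of 15 measured genes reached 10 CPM in the CBE, and 7 of the 10 were highest there. Of all genes at that level, 10.7% were. *Col9a2* was at 99.6, 87.0 and 93.6 CPM against 2.98 CPM in iris PE, *Col9a1* at 64.1, 49.2 and 41.6 CPM against 1.88 CPM, and *Col11a1* at 281, 255 and 345 CPM against 84.0 CPM. These genes encode chains of the collagens that make heterotypic fibrils with type II collagen, whose own gene *Col2a1* was at 12.6 CPM in the CBE and 0.582 CPM in iris PE. *Optc* (chromosome 1, 133897199 to 133907999, minus strand), which encodes the vitreous proteoglycan opticin, was at 292, 233 and 329 CPM, against 24.1 CPM in sphincter 2 and 11.6 CPM in iris PE. Every one of these untreated CBE levels lay above every iris PE library.

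Of 27 transcription factor genes of the optic cup at 10 CPM or more, 9 were highest in the CBE, where 10.7% of all such genes were. The 9 include *Esrrg*, which the study lists for the CBE from these samples. *Zic1*, a zinc finger gene, was at 705 ± 160 CPM in the CBE, 764 ± 61.8 CPM in iris PE and 14.6 CPM in CB, and the T-box gene *Tbx20* at 432 ± 216, 730 ± 176 and 12.8 CPM (SD, n = 3). *Otx2*, in contrast, was at 11.4 CPM in the CBE, 11.2 CPM in iris PE and 433 CPM in CB, and was seen in 2.95% of CBE nuclei. *Zic2* (152 ± 31.4 against 50.4 CPM in iris PE) and *Zic5* (54.6 ± 12.3 against 17.5 CPM; SD, n = 3) were over 2-fold higher in the CBE than in iris PE, as was *Esrrg*, an orphan nuclear receptor, at 944 CPM. *Pax6*, the eye field regulator, was lower in the CBE (1214 ± 77.1 CPM) than in iris PE (1691 ± 63.4 CPM; SD, n = 3).

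Of the signals and retinoid enzymes of the distal optic cup, 8 of 19 at 10 CPM or more were highest in the CBE. Over all genes at that level, 10.7% were. *Bmp7* was at 250 ± 21.8 CPM against 107 CPM in iris PE, and the retinaldehyde dehydrogenase gene *Aldh1a1* at 62.8 ± 15 against 18.5 CPM. *Bmp4* was at 471 ± 181 CPM against 383 ± 34.0 CPM in iris PE, a difference within the spread of the libraries (SD, n = 3). The tight junction genes *Cgn*, cingulin, and *Cldn2*, a pore-forming claudin, were at 459 ± 87.0 and 104 ± 8.56 CPM, against 151 and 9.38 CPM in iris PE, while *Tjp1* was lower in the CBE (288 CPM) than in iris PE (365 CPM). *Cdh1*, E-cadherin, was near 0 in the CBE at 1.19 CPM.

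Second messenger genes were highest in the CBE about as often as all genes at 10 CPM or more (10.7%). They were 2 of 15 phosphodiesterase genes, including *Pde1a*, which the study lists for the CBE from these samples, and 2 of 24 genes of cAMP production and readout. *Pde1c* and *Pde1a*, phosphodiesterases activated by calcium and calmodulin, were at 3675 ± 93.6 and 1350 ± 282 CPM, 2.74-fold and 3.18-fold the next type, and were the 2 phosphodiesterase genes highest there. *Nr3c2*, the mineralocorticoid receptor, was at 739 ± 29.0 CPM, 2.06-fold CB, and *Wnk4*, a kinase that regulates salt transporters, at 64.8 CPM, 4.85-fold iris PE. The adenosine A1 receptor gene *Adora1* was at 74.7, 41.6 and 70.7 CPM against 6.65 CPM in CB. Of 36 receptors known to regulate secretion, 10 reached 10 CPM; *Adra2a*, the alpha-2A adrenergic receptor and a target of pressure-lowering drugs, did not (0.693 CPM).

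All 11 melanin synthesis genes at 10 CPM or more were lower in the CBE than in iris PE. Together the 14 measured genes of the list summed to 4555 CPM in the CBE, 9810 in CB and 17343 in iris PE. *Dct* was at 1367 ± 317 CPM against 7060 ± 525 CPM, and *Tyr*, tyrosinase, at 244 ± 65.3 against 1959 ± 132 CPM in iris PE (SD, n = 3). The share of pigmented and nonpigmented cells in the CBE cluster was not tested.

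Over the 7519 genes at 50 CPM or more in at least 1 cell type, the log2(CPM + 1) means of the CBE gave a Pearson r across genes of 0.910 with iris PE, 0.803 with CB, 0.792 with dilator muscle, 0.624 with stroma 1 and 0.410 with leukocytes. These points share libraries and depth, and genes are not independent replicates. At a 2-fold difference with no overlap of the untreated libraries, 321 genes were higher and 272 lower in the CBE than in iris PE (7.19% and 6.09% of 4463 genes), and 630 were higher and 388 lower than in CB (13.7% and 8.43% of 4600). Of 17 further genes that the study lists for the CBE, 16 were highest in the CBE, but the study chose them on these samples, so this is not independent evidence.

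To ask what pupil dilation does to CBE transcripts, the summed UMIs of dilated and untreated libraries were compared with edgeR's quasi-likelihood test over 8166 genes, and a gene was called at an adjusted p (Benjamini-Hochberg) under 0.05 and a log2 fold change over 0.6 in size. A single gene was called, 0.0122% of those tested. It was *Nalcn* (chromosome 14, 123276634 to 123627144, minus strand), which encodes the sodium leak channel that sets the resting membrane potential of many cells. In the CBE it was at 21.4, 20.8 and 25.0 CPM in untreated, 34.8, 40.5 and 12.2 CPM in constricted, and 83.9 and 131 CPM in dilated libraries. Both dilated libraries lay above all others. The log2 fold change was 2.22 (SE 0.345, edgeR adjusted p = 0.0160). In iris PE of the same libraries *Nalcn* was at 25.1, 16.1 and 16.9 CPM untreated and 22.9 and 14.0 CPM dilated. The call was lost without any 1 of the untreated libraries, where the log2 fold change was 2.16 to 2.32, and without the nuclei of mixed markers (2.01), when no gene was called. Its RefSeq promoter window (250 bases before to 50 after the start) held none of the motifs TGACGTCA, TGACG and CACGTG on either strand, which are in 1.79%, 20.8% and 7.15% of 32851 such windows.

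In dilator muscle, tested in the same way, 2054 of 15395 genes were called (13.3%), in iris PE 84 of 14128 (0.595%) and in CB 5 of 7522 (0.0665%). Without the call threshold, 353 CBE genes (4.32%) had an unadjusted p under 0.05, of which 202 were higher (2.47%) and 151 lower (1.85%). DESeq2 called 2 genes, *Nalcn* and *Gpnmb*. Median log2 fold changes on dilation were -0.44 for the 5 iris PE markers, 0.10 for the 5 CB markers and -0.08 for the 9 dilator markers tested, against -0.01 over all genes. The iris PE list summed to 1868, 1892 and 1768 CPM in untreated and 1746 and 1222 CPM in dilated CBE nuclei, with *Zic1* or *Tbx20* the most abundant, and its part in the dilation values was not tested. The CBE sums held fewer UMIs than those of iris PE or dilator muscle, and the median SE of a CBE log2 fold change was 0.321.

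**Figure D4:**
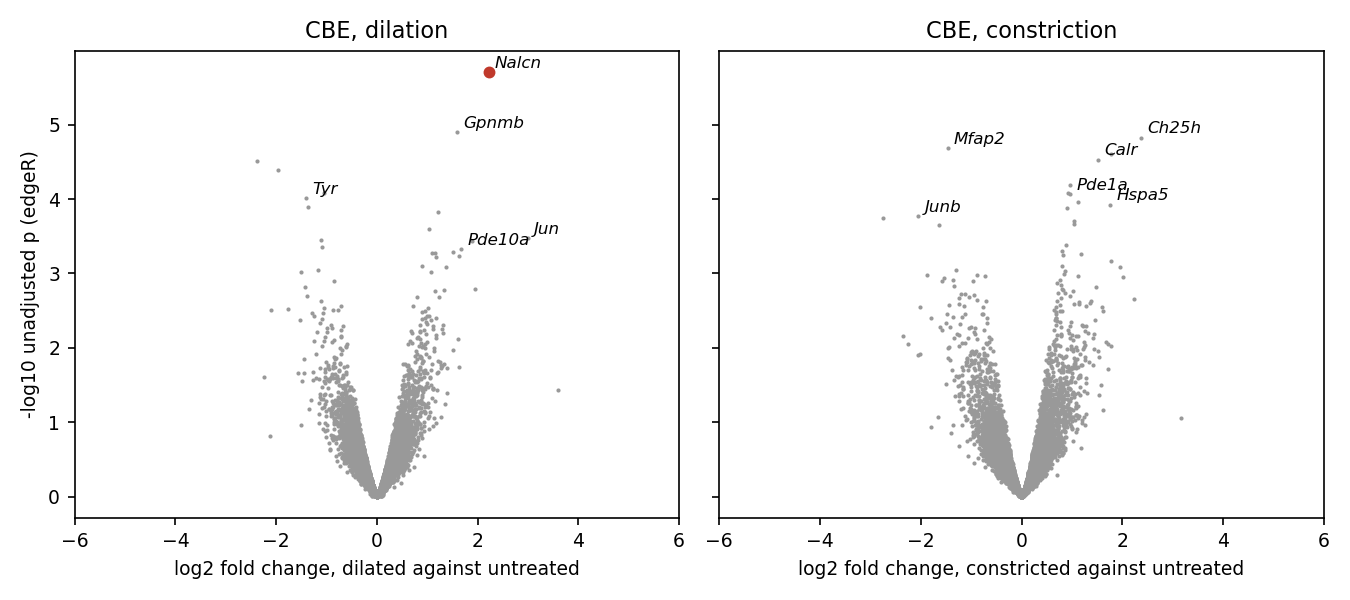
Each point is 1 of the 8166 genes tested in the CBE, by its log2 fold change against untreated irises and -log10 of its unadjusted p (edgeR); left, dilation, right, constriction. The called gene, *Nalcn*, is in red; the other labeled genes were not called, and 1 gene in the right panel lies outside the range drawn.

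The genes nearest to the threshold in dilation were looked up after their values were seen. *Gpnmb* (chromosome 6, 49036546 to 49070929, plus strand), which encodes a melanosomal and lysosomal glycoprotein, was at 249, 195 and 218 CPM in untreated, 364, 144 and 159 CPM in constricted and 754 and 517 CPM in dilated CBE libraries. The dilated libraries lay above the rest, and the log2 fold change of 1.58 (SE 0.282) missed the threshold at an edgeR adjusted p of 0.0513. It was called with DESeq2, with no filter on low counts, with only the 2 conditions in the fit, with the series of library numbers as a block and without dilated replicate 2, at 1.44 to 1.80. *Tyr* was at 174, 255 and 304 CPM untreated and 101 and 76.4 CPM dilated (log2 fold change -1.40, adjusted p = 0.132). *Hmx1*, a homeobox gene, was at 228, 221 and 258 CPM untreated and 125 and 88.7 CPM dilated (log2 fold change -1.05, adjusted p = 0.132). For both, the dilated libraries lay below the untreated ones, and both were called with no filter and with the series block, *Tyr* also with only the 2 conditions in the fit. Of 8166 genes, 1648 (20.2%) had dilated and untreated levels that did not overlap.

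*Pde10a* (chromosome 17, 8525372 to 8986648, plus strand), a phosphodiesterase that degrades cAMP and cGMP, was called in iris PE, CB and dilator muscle on dilation. In the CBE it was at 384, 159 and 177 CPM in untreated, 137, 53.1 and 30.5 CPM in constricted, and 1113 and 313 CPM in dilated libraries. Dilated replicate 2 lay below untreated replicate 1, and the log2 fold change of 1.68 (SE 0.407) was not called at an adjusted p of 0.257. It was called with no filter on low counts (1.74, edgeR adjusted p = 2.87e-09), with the series of library numbers as a block (1.23, adjusted p = 0.00383) and without dilated replicate 2 (2.28, adjusted p = 0.000629). In the same libraries *Pde10a* went from 18.4, 14.1 and 15.3 to 383 and 296 CPM in iris PE, where edgeR called it at a log2 fold change of 4.49 (adjusted p = 8.53e-06). On constriction its CBE value was -1.48 (adjusted p = 0.369), and it was called with no filter (-1.48, edgeR adjusted p = 4.96e-05) and with the series block (-1.79, adjusted p = 0.00257). *Pde4b* and *Pde7b* had unadjusted p-values of 0.0198 and 0.0387 in the CBE, and the median log2 fold change of the 11 phosphodiesterase genes tested was 0.18, against -0.01 over all genes.

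Of immediate early genes, which are switched on within minutes of many stimuli, 11 of 37 were tested in the CBE and none was called by edgeR; 5 (*Jun*, *Junb*, *Jund*, *Ier3* and *Btg2*) were higher at an unadjusted p under 0.05, where 2.47% of all genes tested were, and the median log2 fold change was 0.69. *Jun* was called with no filter on low counts, with only the 2 conditions in the fit and with the series block, *Ier3* with the series block and without dilated replicate 1, and *Btg2* with the series block. *Jun* was at 10.7, 1.89 and 4.16 CPM in untreated, 2.32, 5.06 and 42.7 CPM in constricted and 37.4 and 39.4 CPM in dilated libraries. Constricted replicate 3 was as high as the dilated libraries. *Fos* was at 10.7, 3.78 and 4.16 CPM untreated, 0 in every constricted library, and 14.9 and 32.0 CPM dilated, too low to be tested. Of 12 glucocorticoid-responsive genes tested, none was called and 6 were higher at an unadjusted p under 0.05 (*Fkbp5*, *Sgk1*, *Zbtb16*, *Per1*, *Mt1* and *Mt2*), against the same 2.47% of all genes, with a median log2 fold change of 0.81. Without a filter *Fkbp5*, *Sgk1* and *Mt1* were called, *Mt1* also with the series block and *Fkbp5* also without dilated replicate 1. *Fkbp5*, a co-chaperone of the glucocorticoid receptor, was at 171, 37.8 and 45.8 CPM untreated, 69.6, 53.1 and 220 CPM constricted and 121 and 483 CPM dilated, so that the conditions overlapped. No gene of the aqueous secretion, carrier, zonule and vitreous lists was called in dilation. At an unadjusted p under 0.05, 1 of 6 Na,K-ATPase genes (*Atp1b1*, log2 fold change 1.31), 1 of 6 channel genes (*Aqp1*, 1.15) and 1 of 18 carriers (*Slc38a2*, 0.80) were higher, and of 28 zonule and basement membrane genes 1 was higher (*Fbn1*, 0.58) and 3 were lower (*Fbln5*, -0.92, *Nid2*, -0.67, and *Col18a1*, -0.51). None of 9 ion cotransporters and exchangers, 1 carbonic anhydrase and 7 vitreous genes was. At that threshold 2.47% of all genes tested were higher and 1.85% were lower.

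The 3 label markers were not called in either treatment. Nuclei were assigned to the CBE from the same counts, so levels of these markers are not independent of the assignment. *Slc6a6* was at 3364 and 5208 CPM in dilated and 3188, 3693 and 3804 CPM in constricted CBE nuclei, *Fbln1* at 1185 and 1126, and 1200, 1139 and 1081 CPM, and *Sned1* at 5372 and 3232, and 4397, 4533 and 3254 CPM. The fitted log2 fold changes on dilation were 0.46, 0.19 and -0.10.

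Constriction was compared with the untreated state in the same fit. No gene was called by edgeR (0% of 8166); 554 (6.78%) had an unadjusted p under 0.05, 316 of them higher (3.87%) and 238 lower (2.91%), and DESeq2 called 9. Without constricted replicate 1, edgeR called 13 genes, *Hspa5*, *Ch25h*, *Calr* and *Mfap2* among them. The levels of constricted and untreated libraries did not overlap for 961 genes (11.8%).

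The genes with the smallest p-values in constriction, again looked up after their values were seen, were *Ch25h*, *Mfap2*, *Olfr643* and *Calr*, each at an edgeR adjusted p of 0.0603. *Ch25h*, cholesterol 25-hydroxylase, was at 7.12, 18.9 and 12.5 CPM in untreated and 44.1, 70.9 and 116 CPM in constricted CBE nuclei (log2 fold change 2.37, SE 0.426). It was at 16.3 and 14.8 CPM in the dilated libraries, within the untreated range. *Olfr643*, an olfactory receptor gene, was at 14.2, 26.5 and 20.8 CPM in untreated, 81.2, 58.2 and 79.4 CPM in constricted and 35.0 and 39.4 CPM in dilated CBE nuclei, so that the conditions did not overlap (log2 fold change on constriction 1.77, SE 0.332). *Calr* and *Hspa5*, chaperones of the endoplasmic reticulum, were at 35.6, 49.2 and 60.3 and at 39.1, 32.1 and 37.4 CPM in untreated libraries. In the constricted libraries *Calr* was at 102, 190 and 122 CPM (log2 fold change 1.52) and *Hspa5* at 48.7, 170 and 153 CPM (1.76, adjusted p = 0.107). Constricted replicate 1 was the lowest of the 3 for both. With no filter on low counts all of these genes were called by edgeR, and with the series block *Ch25h*, *Mfap2* and *Olfr643* were.

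*Mfap2*, a component of the microfibrils that build the zonule, was at 157, 115 and 112 CPM in untreated, 51.0, 38.0 and 42.7 CPM in constricted and 101 and 73.9 CPM in dilated CBE nuclei. Its constricted libraries all lay below the others, with a log2 fold change of -1.47 (SE 0.271). *Pde1a* was at 1025, 1501 and 1524 CPM untreated and 2327, 2607 and 2815 CPM constricted (log2 fold change 0.96, adjusted p = 0.0992), and *Foxp2*, a forkhead transcription factor, at 534, 493 and 474 against 814, 1086 and 885 CPM (0.93, adjusted p = 0.0992). For both genes the constricted libraries lay above the untreated and the dilated ones, and both were called by DESeq2 and with no filter, *Pde1a* also with the series block and *Foxp2* also without constricted replicate 1. *Junb* was at 49.8, 94.5 and 43.7 CPM untreated, 25.5, 5.06 and 12.2 CPM constricted and 130 and 98.6 CPM dilated, with log2 fold changes of -2.05 on constriction (adjusted p = 0.122) and 0.90 on dilation (adjusted p = 0.781). Its constriction value was called with no filter and without constricted replicate 1. Median log2 fold changes on constriction were 0.67 for the 5 CB markers, 0.60 for the 9 dilator markers tested and -0.53 for the 5 iris PE markers, against -0.005 over all genes. Summed levels of the CB list were 1726, 1550 and 1743 CPM in untreated and 2418, 2106 and 2131 CPM in constricted CBE nuclei, with *Rgs6* or *Pld5* the most abundant. *Rgs6* is also among the genes that the study lists for the CBE. It was at 861, 673 and 834 CPM untreated and 1490, 1412 and 721 CPM constricted. *Tnr* is on both the CB and the iris PE list, so these lists are not independent. The part that transcripts of other cell types have in the constriction values was not tested.

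Whether the CBE responds to dilation differently from iris PE was tested as an interaction of cell type and dilation, with a term for each library. Of 12665 genes, 35 were called (0.276%): for 13 the change was higher in the CBE (0.103%) and for 22 lower (0.174%). *Slc6a6* was among the latter. It stayed between 2463 and 5208 CPM in all CBE libraries, while in iris PE it was at 24.2, 26.7 and 23.3 CPM untreated and 113 and 132 CPM dilated. The difference of the log2 fold changes was -1.84 (SE 0.180, edgeR adjusted p = 7.52e-11). *Optc* was at 292, 233 and 329 CPM untreated and 192 and 365 CPM dilated in the CBE, and at 15, 7.36 and 12.4 against 61.7 and 47.6 CPM in iris PE, a difference of -2.55 (SE 0.254, adjusted p = 9.11e-11). For both genes the iris PE libraries of the 2 conditions did not overlap and those of the CBE did.

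The other genes with the largest negative differences were *Slc26a4* (-3.45), *Fbln2*, which encodes fibulin-2 (-2.98), *Pde10a* (-2.72) and *Nr1h4*, the bile acid receptor FXR (-2.05). In iris PE *Slc26a4* went from 2.51, 0.995 and 0.888 CPM to 9.53 and 4.11 CPM and stayed far below the CBE, where it went from 114, 389 and 416 to 195 and 273 CPM. Without dilated replicate 1 the differences of *Slc26a4* (-2.30), *Fbln2* (-1.72) and *Nr1h4* (-1.43) were no longer called. Without untreated replicate 3, *Fbln2* (-2.80) and *Nr1h4* (-1.69) were not called, nor was *Fbln2* without untreated replicate 2 (-3.23). In a fit with replicate number and condition in place of the library terms, *Fbln2* (-2.92) and *Nr1h4* (-1.94) were not called either. That fit does not pair the CBE and iris PE nuclei of a library. Of the 123 genes highest in the CBE, 8 were among the 22 and 2 among the 13. The 123 were chosen on the same untreated levels that enter the difference, so nothing is read from these counts. *Sned1*, the most abundant of the 3 label markers in untreated CBE nuclei, was at 549, 504 and 364 CPM in untreated and at 700 and 344 CPM in dilated iris PE nuclei, so its levels there overlapped. The label marker *Fbln1* was at 249, 108 and 102 CPM in untreated and at 263 and 315 CPM in dilated iris PE nuclei, without overlap. *Slc6a6* was at 81.0, 60.8 and 63.6 CPM in untreated and at 202 and 212 CPM in dilated dilator muscle nuclei. Any part of RNA carried over from the CBE in the iris PE values was not tested.

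**Figure D5:**
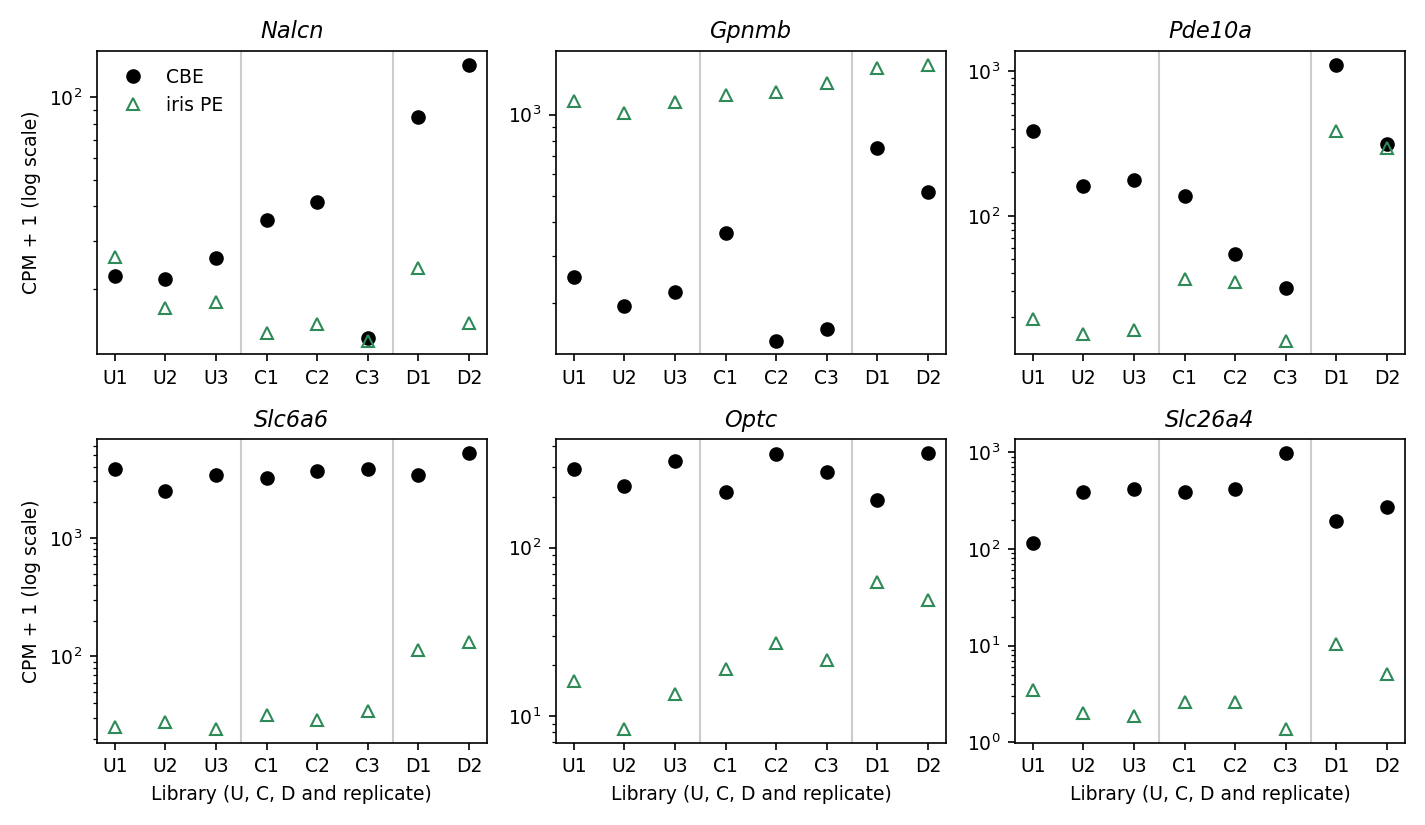
Levels of 6 genes in CBE (filled circles) and iris PE (open triangles) nuclei of the 8 libraries, as CPM + 1 on a log scale that differs between panels. *Nalcn* is higher in the CBE of both dilated libraries, whereas *Pde10a*, *Slc6a6*, *Optc* and *Slc26a4* are higher in iris PE of both dilated libraries than in untreated ones.

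The largest positive differences were those of *Nalcn* (2.03), *Gm19299* (1.70), *Filip1*, which encodes a filamin-binding protein (1.46), *Col11a1* (1.17) and *Gpnmb* (1.08). In the fit without library terms, which does not pair the nuclei of a library, none of these was called, at differences of 1.04 (*Gpnmb*) to 2.10 (*Nalcn*). *Col11a1* was at 281, 255 and 345 CPM in untreated and 254 and 251 CPM in dilated CBE nuclei, and at 86.1, 81.2 and 84.8 against 34.1 and 29.1 CPM in iris PE, so that its difference (SE 0.196, edgeR adjusted p = 0.000173) came with lower levels in iris PE. *Gpnmb* in iris PE was at 1125, 1010 and 1113 CPM untreated and 1485 and 1532 CPM dilated, a smaller step than in the CBE. Without dilated replicate 1 the differences of *Gm19299* (1.56) and *Gpnmb* (0.71) were no longer called. Without untreated replicate 3 those of *Gm19299* (1.63), *Gpnmb* (1.04) and *Filip1* (1.16) were not, and that of *Filip1* was also lost without untreated replicate 2 (1.65) and dilated replicate 2 (1.25). Without untreated replicate 2 the 35 calls became 23, and without untreated replicate 3 they became 16.

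Against CB, no gene of 9030 was called by edgeR (0%), while 428 (4.74%) had an unadjusted p under 0.05. *Pde10a* in CB was at 633, 558 and 527 CPM in untreated, 244, 96.3 and 133 CPM in constricted, and 3485 and 990 CPM in dilated libraries, and the difference of its log2 fold changes between the CBE and CB was -0.28 (SE 0.242). The CB had 1291 nuclei. Without untreated replicate 1 the comparison called 8 genes.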

How the data were processed

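Nuclei of 8 libraries (10x Genomics Chromium 3′ version 3) were profiled. The authors aligned reads to mm10 and merged the libraries with Cell Ranger 3.1.0, clustered the nuclei with Seurat and assigned 10 cell types. The deposited matrices hold raw UMI counts per gene and nucleus (22873 genes, 34357 nuclei, 500 to 5956 genes detected per nucleus). The summed UMIs equal the deposited number in 31650 nuclei and are below it in 2707. The deposited percent of mitochondrial UMIs in each nucleus was computed by the authors, who kept nuclei up to 1%. How doublets were treated is not given in the sources used here, and no doublet caller was run.

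For each library, the UMIs of the nuclei of a cell type were added up, and used as CPM for levels and as counts for tests. Responses were tested with edgeR 4.0.16 (R 4.3.3; TMM, filterByExpr, glmQLFit and glmQLFTest, all 8 libraries in a fit, condition as the only term), with Benjamini-Hochberg adjustment over all genes tested; the scripts were tested on simulated data. DESeq2 1.42.0 was an alternative, as were other filters, blocks and sets of nuclei, and leaving out each library. The authors' own tests were on nuclei. Replicates are pools of 5 or 6 irises. Shares of nuclei were compared by exact permutation over libraries. Named genes were the 20 with the largest ratio to the next type, members of 34 gene lists, up to 15 called genes a direction in dilation and 8 in constriction, and 5 a direction for differences between types; genes singled out after their values were seen are named as such, and some genes are not reported here. The members and lists were chosen with earlier results of these data known. Positions are from GENCODE vM21, which names the same build; 120 of the 123 genes highest in the CBE have one. Wilson intervals cover counting error only.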

Additional observations from a re-analysis of the deposited data

Results flagged for a closer look

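The results below stood out because the response of a gene to dilation differed between CBE and iris PE nuclei of the same libraries by the edgeR test of the interaction, each at an adjusted p under 0.05. They are differences of log2 fold changes, CBE minus iris PE. Lower in the CBE were *Slc26a4* (-3.45), *Fbln2* (-2.98), *Pde10a* (-2.72), *Optc* (-2.55), *Nr1h4* (-2.05), *Slc6a6* (-1.84) and *Fbln1* (-0.84). Higher in the CBE were *Nalcn* (2.03), *Gm19299* (1.70), *Filip1* (1.46), *Col11a1* (1.17) and *Gpnmb* (1.08). In a fit with replicate number and condition in place of the library terms, only *Slc26a4*, *Pde10a*, *Optc* and *Slc6a6* of these kept the call. That fit does not pair the CBE and iris PE nuclei of a library. The others lost it at differences of like size, such as -2.92 for *Fbln2* and 2.10 for *Nalcn*. *Gm19299* was at 28.5, 24.6 and 27.0 CPM in untreated and 39.8 and 34.5 CPM in dilated CBE nuclei, and at 53.5, 65.0 and 71.4 against 29.6 and 28.1 CPM in iris PE. *Filip1* was at 28.5, 26.5 and 12.5 CPM in untreated and 57.1 and 81.3 CPM in dilated CBE nuclei. In iris PE it was at 37.6, 40.2 and 37.1 CPM untreated and at 43.3 and 38.0 CPM dilated. The difference of *Fbln1* lost its call without untreated replicate 2 (-0.81), untreated replicate 3 (-0.74) or dilated replicate 2 (-0.68). The cause of these differences was not tested.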

How the results depend on the processing

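Few calls in the CBE were stable. The single dilation call became 2 with DESeq2, 33 with no filter on low counts, 6 with only the 2 conditions in the fit, 26 with the series of library numbers as a block, 0 without nuclei of mixed markers, and 0 to 7 without a library. *Nalcn* was past the threshold in 10 of 14 alternatives, at log2 fold changes of 1.90 to 2.62. The 0 constriction calls became 9 with DESeq2, 31 with no filter, 12 with the series block and 0 to 13 without a library. The 35 differences from iris PE became 16 to 40 without a library and 50 without the constricted libraries. The 0 differences from CB became 3 with no filter, 6 without the constricted libraries and 0 to 8 without a library. Genes highest in the CBE numbered 115 to 124 without a library, 108 to 115 of them among the 123, and 174 at a minimum of 20 CPM. Of 110 alternative values of single genes, 82 kept their direction and side of the threshold, 28 lost the call and none turned. The CBE share differed by -0.0915 to 4.29 percentage points (dilated) and -1.09 to 1.05 (constricted) without a library; for constriction it was -0.382 without untreated replicate 2, -0.571 without untreated replicate 3 and -1.09 without constricted replicate 2, and, as a share of CBE and CB nuclei together, -5.57. Some of these settings also hold fewer libraries or genes. The causes of the changes were not tested.

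Correlations of deviations from the group means between same-numbered libraries ran from -0.0170 to 0.287, and 1 of 7 was over 0.1. Between libraries of the same series the 8 correlations ran from 0.0360 to 0.287. Between libraries of different series they ran from -0.287 to 0.0206. Deviations of the 2 dilated libraries mirror each other, so these values are not independent. The main fits of the responses held no term for the series. With a replicate block edgeR called 8 genes in dilation (*Gpnmb*, *Tyr*, *Pde10a* and *Jun* among them). In constriction it called 18 (*Ch25h*, *Mfap2*, *Olfr643*, *Calr*, *Hspa5*, *Pde1a*, *Pde10a*, *Foxp2* and *Junb* among them). For the differences between cell types, replicate number and condition stood in place of the library terms, so nuclei of a library were not paired. That fit called 5 genes in the difference from iris PE (*Pde10a*, *Optc*, *Slc6a6*, *Slc6a13* and *Slc26a4*) and 0 in that from CB. None of the 13 positive differences from iris PE was among those 5. The libraries held 52 to 556 CBE nuclei, and levels were least precise where they were fewest.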

Other observations

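Beyond the groups described in the report, the 123 genes highest in untreated CBE nuclei included secreted and defense genes. *Gpx3*, a secreted glutathione peroxidase, was at 324 CPM, *Il33*, a nuclear alarmin, at 249 CPM (4.78-fold CB), and the beta-defensin genes *Defb9* and *Defb2* at 730 and 52.0 CPM. *Crhbp*, the binding protein of corticotropin-releasing hormone, was at 126 CPM (9.33-fold iris PE). Genes better known from neurons were also present: the glutamate receptor subunits *Gria1* (153 CPM, 4.95-fold sphincter 1) and *Grin2b* (269 CPM), and *Ntrk2*, the BDNF receptor, at 343 CPM. *Glul*, glutamine synthetase, was at 707 ± 192 CPM (SD, n = 3), 2.66-fold endothelial cells.

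Some stress-responsive genes differed between the untreated libraries. *Fkbp5*, *Sgk1* and *Zbtb16* were highest in untreated replicate 1 among the untreated CBE libraries (171, 317 and 345 CPM, against 37.8, 92.6 and 81.3 CPM in untreated replicate 2), and *Sik1* was at 242, 41.6 and 12.5 CPM in untreated replicates 1, 2 and 3. In iris PE of the same libraries *Fkbp5* was at 71.0, 19.9 and 11.9 CPM and *Sgk1* at 181, 67.6 and 72.7 CPM, with untreated replicate 1 again the highest.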
